A study of Mus musculus with 44 samples.

Results

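Interferon-stimulated genes and the genes that load and display peptides on MHC molecules were followed as 1 module of 35 genes, of 38202 genes in the count tables. The genes were chosen by name, from the interferon and antigen-presentation pathways, and all 35 were found in the tables. They comprised 13 effectors induced by type I interferon, 3 transcription factors, 2 chemokines, 6 interferon-inducible GTPases, 6 genes of the MHC class I pathway and 5 of the MHC class II pathway.

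Poly(A) RNA of liver and skeletal muscle was sequenced from 22 mice, 11 wild type (WT) and 11 knockout (KO) for Slc16a13, giving 44 libraries of 20150712 to 35218243 counts. The KO is a constitutive CRISPR/Cas9 deletion of the promoter and the first exons of this lactate transporter gene. All mice were male littermates on a C57BL/6N background, were on a high-fat diet (HFD) for 15 weeks, and were killed at 20 weeks of age after an overnight fast. Chow-fed and interferon-treated mice were not among the groups, so all values describe fasted mice on HFD.

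Slc16a13 was at 99 to 302 counts in the livers of WT mice and at 0 to 8 counts in KO livers. In muscle it was near the detection limit, at 4 to 22 counts in WT and at 11 to 40 counts in the muscle libraries labelled KO. The muscle values were thus not lower under the KO label and do not check it. Each tissue carried its own markers, with a summed level of the hepatocyte genes Alb, Apoa1, Ttr and Cps1 of at least 65815 CPM (counts scaled to a common library total) in every liver and at most 7.30 CPM in every muscle. In 4 of the 11 KO livers long genes read lower, relative to short ones, than in the other livers. Each gene's log2 CPM, as deviation from its mean over the 22 livers, was regressed on log2 length of the gene. The slope lay between -0.53 and -0.08 in these 4 livers (mice 532, 602, 583 and 611) and between 0.04 and 0.11 in the other livers. The libraries were sequenced in pools that the sources used here do not name, so pool and group cannot be told apart.

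Interferons are secreted proteins that cells release on sensing viral or bacterial products. Type I interferons bind a receptor present on nearly all cells and switch on genes that hold an interferon-stimulated response element (ISRE) near their start. Interferon gamma, made mainly by T cells and natural killer (NK) cells, acts at gamma-activated sites (GAS) and through Irf1, and raises GTPases, chemokines and both MHC pathways. Class I molecules show peptides from inside the cell on nearly every cell type, while class II molecules are carried mainly by dendritic cells, macrophages and B cells. In liver, Kupffer cells and endothelial cells as well as hepatocytes respond to interferon.

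Promoter letters of the module were searched for these elements. RefSeq promoters (build GRCm38.p6) were at hand for 26 of the 35 genes, and the 250 bases before each start were searched on both strands for ISRE (GAAANNGAAA), GAS (TTCNNNGAA) and the Y box (CCAAT) of MHC promoters. An ISRE match was present in 15 of the 26 genes (57.7%), against 3.46% of all 27025 genes with a promoter in the table. It was found in 6 of 6 GTPase genes, in 6 of 9 type I effectors (Ifit1, Ifit3, Isg15, Rsad2, Oas1a and Bst2), and in Stat2, Cxcl10 and B2m. A GAS match was present in 7 of 26 genes (26.9%) against 8.13% of all genes, in Bst2, Gbp7, Ifit2, Igtp, Irf1, Irgm2 and Oas1a. The Y box was found in 16 of 26 (61.5%) against 37.5% of all genes, and in each of the 4 class I and 2 class II genes that had a promoter entry. Such matches describe the letters only, and a missing match says nothing about whether a factor binds.

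The promoters of 5 genes are printed to show these elements in genes to which the expression results return, each as the 250 bases before the start, read 5′ to 3′ on the gene's own strand. Capitals mark the ISRE in the first 4 and the Y box in H2-Eb1, a match on the other strand appears as its reverse complement, and the GAS match of Igtp and the Y box of B2m are left in lower case. Isg15 (chr4:156200819-156201068, minus strand) is a ubiquitin-like protein conjugated to other proteins, and holds 3 overlapping ISRE matches that begin 78 to 66 bases before the start. Igtp (chr11:58199306-58199555, plus strand) and Gbp2 (chr3:142620413-142620662, plus strand) encode interferon-inducible GTPases, with 1 ISRE match each, at 34 and 59 bases. B2m (chr2:122147437-122147686, plus strand) is the invariant light chain of class I molecules, with 1 ISRE match at 139 bases. H2-Eb1 (chr17:34305617-34305866, plus strand) is a class II beta chain, with 2 Y boxes at 59 and 35 bases and no ISRE match.
Isg15: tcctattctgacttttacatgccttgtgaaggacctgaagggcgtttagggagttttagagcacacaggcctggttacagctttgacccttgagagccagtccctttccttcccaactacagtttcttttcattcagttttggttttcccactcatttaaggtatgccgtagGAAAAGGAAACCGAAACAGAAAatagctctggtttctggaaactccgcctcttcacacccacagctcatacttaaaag
Igtp: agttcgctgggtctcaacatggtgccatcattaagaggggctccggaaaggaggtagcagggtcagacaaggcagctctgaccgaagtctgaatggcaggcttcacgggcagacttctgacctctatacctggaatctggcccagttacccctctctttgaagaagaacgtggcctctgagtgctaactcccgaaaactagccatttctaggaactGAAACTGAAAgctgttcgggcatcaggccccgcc
Gbp2: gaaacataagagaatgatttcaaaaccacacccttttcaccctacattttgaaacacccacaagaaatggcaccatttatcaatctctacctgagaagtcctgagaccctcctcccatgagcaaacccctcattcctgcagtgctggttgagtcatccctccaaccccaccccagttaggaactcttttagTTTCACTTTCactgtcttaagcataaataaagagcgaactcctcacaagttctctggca
B2m: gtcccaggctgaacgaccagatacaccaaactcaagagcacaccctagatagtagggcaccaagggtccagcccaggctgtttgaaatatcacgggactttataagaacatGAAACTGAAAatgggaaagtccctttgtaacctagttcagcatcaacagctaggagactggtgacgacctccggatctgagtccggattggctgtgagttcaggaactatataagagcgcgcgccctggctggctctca
H2-Eb1: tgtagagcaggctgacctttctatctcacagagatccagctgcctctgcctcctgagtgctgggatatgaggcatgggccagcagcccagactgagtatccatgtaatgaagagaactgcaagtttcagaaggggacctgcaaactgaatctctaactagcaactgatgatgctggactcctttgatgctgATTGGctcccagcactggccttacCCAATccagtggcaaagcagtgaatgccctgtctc

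The first comparison asked where the module is expressed, and set the WT livers against the WT muscles. All 35 genes were higher in liver at an adjusted p under 0.05 (edgeR quasi-likelihood test, Benjamini-Hochberg over 13907 genes), with a median log2 fold change of 2.77 against 0.00 over all genes tested. This is to be read beside the size of the tissue difference itself, since 91% of all genes passed in either direction, with 45.5% higher and 45.5% lower in liver. Of the 35 genes, 29 were testable when every library had to hold 10 counts, because 6 were close to the floor in muscle. In bulk tissue, fewer cells of a type and less RNA per cell cannot be told apart. Levels below are per length, in the RPKM values of the study (reads scaled to a gene length and the depth of the library). The length behind them was not the same in every library. Nlrc5 had medians of 19.5 CPM and 4.98 RPKM in WT livers, but highest values of 28.3 CPM and 12.5 RPKM in KO livers. RPKM gaps between tissues can hold such a difference too, whereas the fold changes are from the counts.

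Among the type I effectors, the widest gap belonged to Oasl1, a relative of the antiviral oligoadenylate synthetases. It was at 9.71 to 17.6 (median 13.1) RPKM in liver and at 0.061 to 0.602 (median 0.24) RPKM in muscle, a log2 fold change of 6.09 ± 0.14 (SE; adjusted p = 1.25e-23). Zbp1, a sensor of nucleic acids in the Z form, followed with 4.77 against 0.19 RPKM (medians) and a log2 fold change of 4.67 ± 0.17. Neither gene's ranges touched between the tissues. The membrane tether Bst2, which holds budding virus on the cell, had the highest level of the effectors, at 68.7 to 100.3 (median 82.5) RPKM in liver and 4.46 to 6.82 (median 5.35) RPKM in muscle. Isg15 was at 14.5 to 21.5 (median 15.7) RPKM in liver and 0.577 to 1.76 (median 1.26) RPKM in muscle, with a log2 fold change of 3.80 ± 0.11. For both, the lowest liver lay above the highest muscle. Usp18, the protease that removes Isg15 from proteins, and Ifit1, Ifit3 and Rsad2, which block viral RNA translation or replication, had liver medians of 10.7, 7.92, 9.01 and 7.48 RPKM and muscle medians of 0.95, 0.645, 1.35 and 1.19 RPKM. Mx1, a dynamin-like antiviral GTPase, and the synthetase Oas1a were low even in liver (medians 0.868 and 1.43 RPKM, against 0.081 and 0.205 RPKM in muscle). The smallest differences in this class belonged to Oasl2 (log2 fold change 1.38 ± 0.14), Ifit2 (1.14 ± 0.14) and Oas2. The last of these was at 0.694 to 1.26 (median 0.868) RPKM in liver and at 0.415 to 0.919 (median 0.65) RPKM in muscle, so the ranges overlapped although the test passed (log2 fold change 0.49 ± 0.12, adjusted p = 6.88e-04, edgeR).

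The transcription factors and chemokines were also higher in liver. Irf7, the master factor of the type I response, had medians of 23.2 RPKM in liver and 2.01 RPKM in muscle, with a log2 fold change of 3.68 ± 0.08. Stat2, a factor of the type I interferon pathway that carries an activation domain, was tightly spread, at 11.8 to 14.4 (median 13.4) against 1.17 to 1.72 (median 1.35) RPKM, and had the smallest error of the module (log2 fold change 3.31 ± 0.05, adjusted p = 1.82e-27). Irf1, a factor that interferon gamma induces, differed less, at 7.83 to 22.3 (median 11.5) against 2.94 to 4.62 (median 3.502) RPKM, and its highest WT liver, that of mouse 516, stood well above the median. The T cell attractants Cxcl9 and Cxcl10 had liver medians of 3.92 and 5.63 RPKM and muscle medians of 0.358 and 0.289 RPKM.

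Of the GTPases, Irgm1 and Igtp differed most between the tissues and Gbp7 and Gbp2 least. Irgm1, which protects the cell's own membranes from the other family members, was at 37.1 to 50.5 (median 42.96) RPKM in liver and 7.2 to 9.33 (median 7.89) RPKM in muscle. Igtp had medians of 19.8 and 5.899 RPKM, and Irgm2 of 16.5 and 6.501 RPKM. Gbp2, Gbp3 and Gbp7 had log2 fold changes of 0.72 ± 0.14, 1.53 ± 0.11 and 0.65 ± 0.10. These GTPases have close relatives in the mouse genome, as do the class I genes H2-K1 and H2-D1, Ifit3 and Oas1a, so their counts depend on how shared reads were assigned.

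Of the MHC genes, those of class I are given first. B2m was the most abundant gene of the module in both tissues, at 1527 to 1949 (median 1705) RPKM in liver and 62.3 to 133 (median 94.6) RPKM in muscle, and the heavy chain H2-K1 was next in liver at 705 to 868 (median 751) RPKM. H2-D1, the other heavy chain, had medians of 275 and 52.5 RPKM. The peptide transporter subunits Tap1 and Tap2 had liver medians of 15.4 and 12.1 RPKM and muscle medians of 1.56 and 3.84 RPKM, and Nlrc5, the transactivator of class I genes, had 4.98 and 0.55 RPKM. By contrast, the class II genes had a median log2 fold change of 0.80, the lowest of the 6 roles. The alpha chain H2-Aa was at 21.7 to 45.2 (median 30.2) RPKM in liver and 9.402 to 26.9 (median 20.2) RPKM in muscle, and the beta chains H2-Ab1 and H2-Eb1 had log2 fold changes of 0.80 ± 0.13 and 0.63 ± 0.13. Cd74, the invariant chain that guards the class II groove, was at 62.1 to 113 (median 82.2) against 20.4 to 48.5 (median 40.2) RPKM, and Ciita, the class II transactivator, was low in both tissues (medians 0.296 and 0.136 RPKM). The ranges of H2-Aa overlapped between tissues, whereas those of Cd74 did not. The plot of WT levels shows the 35 genes side by side.

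**Figure D1:**
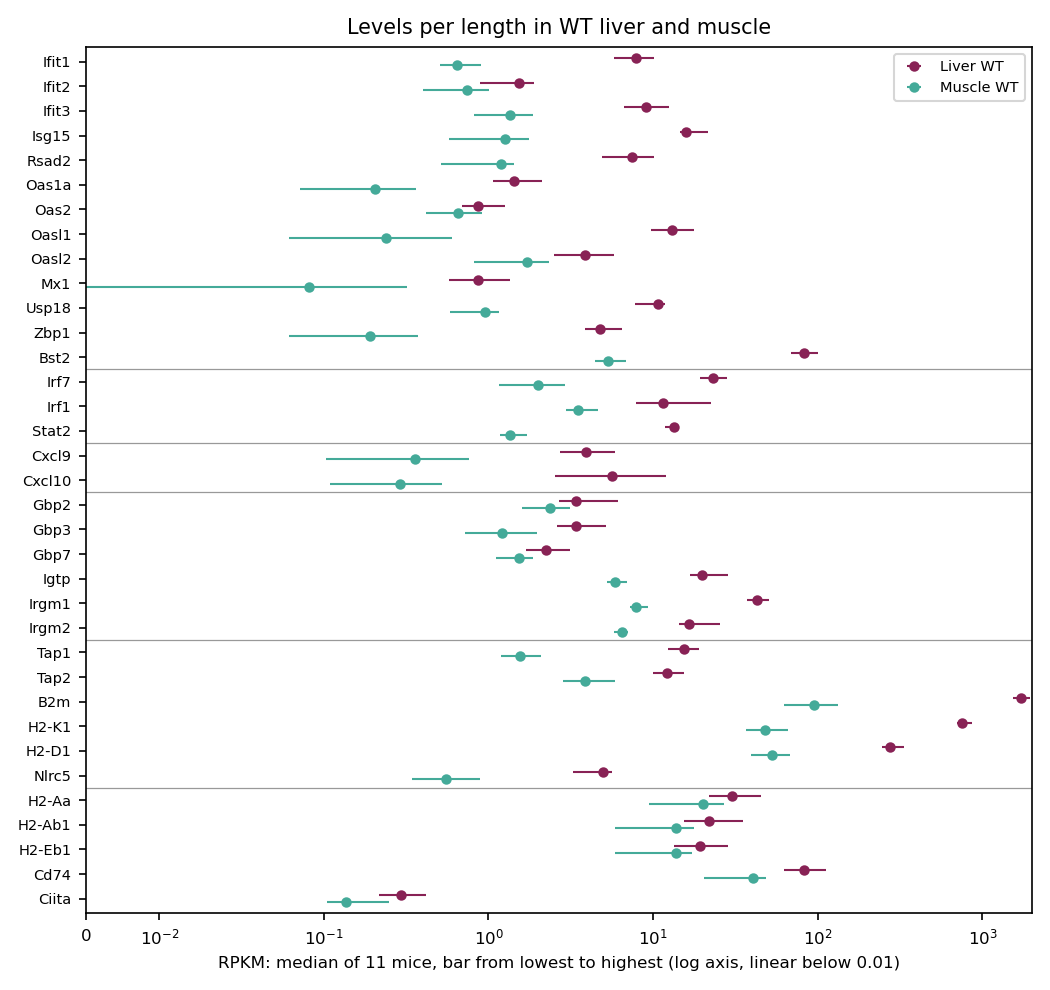
RPKM (log axis, linear below 0.01) of the 35 genes in WT liver and WT muscle, as the median of 11 mice with a bar from the lowest to the highest mouse and grey lines between roles. The liver median lies above the muscle median for every gene, by the widest margin for Oasl1 and by the narrowest for Oas2.

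The main question of the study was what loss of Slc16a13 changes, and in liver the module gave no call. Of the 35 genes, 0 passed an adjusted p of 0.05 between KO and WT livers (edgeR quasi-likelihood test over 13005 genes), as against 0.0231% of all genes, and DESeq2 and limma-voom also called 0. At an unadjusted p under 0.05, 7 of 35 genes were higher in KO and 0 lower (DESeq2 gave 2 and limma-voom 0 of 35). Over all 13005 genes tested, 1272 were higher and 403 lower at that level, 12.9% in either direction. The estimates were above 0 for 28 genes and below 0 for 7, with a median log2 fold change of 0.26 against -0.01 over all genes tested. The 7 genes were Igtp, the class II genes Cd74, H2-Ab1, H2-Eb1 and H2-Aa, the sensor Zbp1 and the chemokine Cxcl9.

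The liver of 1 mouse carried these estimates. Without the KO liver of mouse 532, 0 of 35 genes had an unadjusted p under 0.05, 21 estimates were above 0 and 14 below, and the median log2 fold change was 0.03. Without the 4 livers of negative length slope, among them that of mouse 532, 10 estimates were above 0 and 25 below, with a median of -0.04. Leaving out any other single liver left the median between 0.25 and 0.31 and between 6 and 12 genes at an unadjusted p under 0.05 (12 without KO mouse 598).

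Igtp had the smallest p of the module. It was at 32.5 to 55.9 (median 40.02) CPM in WT livers and at 33.1 to 759 (median 41.9) CPM in KO livers, the highest KO value being mouse 532 and the next 50.8 CPM, inside the WT range. The log2 fold change was 1.43 ± 0.51 (adjusted p = 0.382) with this mouse and 0.08 ± 0.10 without it. Cd74 was at 76.5 to 138 (median 101) CPM in WT and at 86.9 to 1427 (median 109) CPM in KO, and its log2 fold change went from 1.19 ± 0.43 (adjusted p = 0.382) to 0.18 ± 0.11 without mouse 532. For both genes the other KO livers overlapped the WT livers. H2-Eb1 was at 16.2 to 30.99 (median 22.1) CPM in WT and at 16.3 to 409 (median 23.7) CPM in KO (log2 fold change 1.38 ± 0.51, adjusted p = 0.382, and 0.09 ± 0.13 without mouse 532). The chains H2-Ab1 and H2-Aa followed with 1.35 ± 0.49 and 1.07 ± 0.43, and with 0.13 ± 0.14 and 0.10 ± 0.13 without that mouse. Their transactivator Ciita had a log2 fold change of -0.07 ± 0.31, at 1.15 to 2.27 (median 1.54) CPM in WT and 0.166 to 4.75 (median 1.31) CPM in KO.

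The type I effectors had smaller estimates in liver. Isg15 was at 10.6 to 15.9 (median 12.1) CPM in WT and 7.18 to 72.1 (median 12.98) CPM in KO, Ifit1 at 15.02 to 27.1 (median 20.4) and 12.5 to 52.5 (median 23.6) CPM, and Zbp1 at 4.96 to 8.06 (median 6.25) and 3.97 to 74.6 (median 6.85) CPM. In each of the 3 genes the genotypes overlapped, and the KO maximum was mouse 532. The estimates below 0 in this class were those of Ifit2 (-0.10 ± 0.16), Oas2 (-0.03 ± 0.12) and Mx1 (-0.15 ± 0.17), and those of Rsad2 (0.05 ± 0.15), Oasl1 (0.05 ± 0.14), Usp18 (0.19 ± 0.20) and Oasl2 (0.25 ± 0.19) lay between 0 and 0.26. Ifit3, Oas1a and Bst2 had 0.39 ± 0.22, 0.50 ± 0.24 and 0.47 ± 0.24 with mouse 532 and 0.11 ± 0.14, 0.18 ± 0.15 and 0.15 ± 0.14 without it.

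Of the factors, Irf7 was at 32.7 to 40.8 (median 35.7) CPM in WT and 28.5 to 124 (median 37.7) CPM in KO, Irf1 at 15.9 to 41.8 (median 23.8) and 15.3 to 70.7 (median 24.4) CPM, and Stat2 at 50.7 to 61.4 (median 58.5) and 43.5 to 63.4 (median 56.8) CPM. Cxcl9 and Cxcl10 had log2 fold changes of 1.12 ± 0.51 and 0.26 ± 0.36, and of -0.10 ± 0.18 and -0.25 ± 0.25 without mouse 532, so both turned negative. Among the GTPases, Gbp2 (0.79 ± 0.41) and Gbp3 (0.57 ± 0.33) turned negative in the same way, while Gbp7 was below 0 with and without that mouse (-0.19 ± 0.21 and -0.27 ± 0.21). Irgm1 and Irgm2 had 0.23 ± 0.19 and 0.25 ± 0.24, and -0.05 ± 0.06 and -0.10 ± 0.12 without that mouse. The class I genes Tap1, Tap2, B2m, H2-K1 and H2-D1 had log2 fold changes of 0.33 ± 0.20, 0.26 ± 0.16, 0.14 ± 0.10, 0.26 ± 0.16 and 0.26 ± 0.16, and Nlrc5 of -0.05 ± 0.14. Of the genes in this paragraph, Cxcl9 alone had an unadjusted p under 0.05.

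In the wider pathway none of the genes passed an adjusted p of 0.05 in liver. Counts at an unadjusted p under 0.05 are to be read beside the 12.9% of all genes (1272 higher and 403 lower of 13005). Of 16 other genes of the interferon gamma response with enough reads, 8 were higher in KO and 0 lower (median log2 fold change 0.50), among them Tgtp1 (a T cell GTPase, 2.26) and Ccl5 (a chemokine, 2.24). Without mouse 532 this became 1 of 16, with a median of 0.04, and without the 4 livers of negative slope 1 of 16, with a median of -0.03. Of 33 other type I interferon-stimulated genes, 2 were higher and 2 lower, with a median of 0.07. The 22 receptors and proximal signalling genes had 3 higher (Ifnar2 0.24, Irf3 0.28 and Myd88 0.18) and 1 lower, with a median of 0.01. The other class I genes had 1 of 13 higher and the other class II genes 4 of 11, with medians of 0.24 and 0.50. Without mouse 532 these counts were 0 of 13 and 2 of 11, with medians of 0.03 and 0.15.

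**Figure D2:**
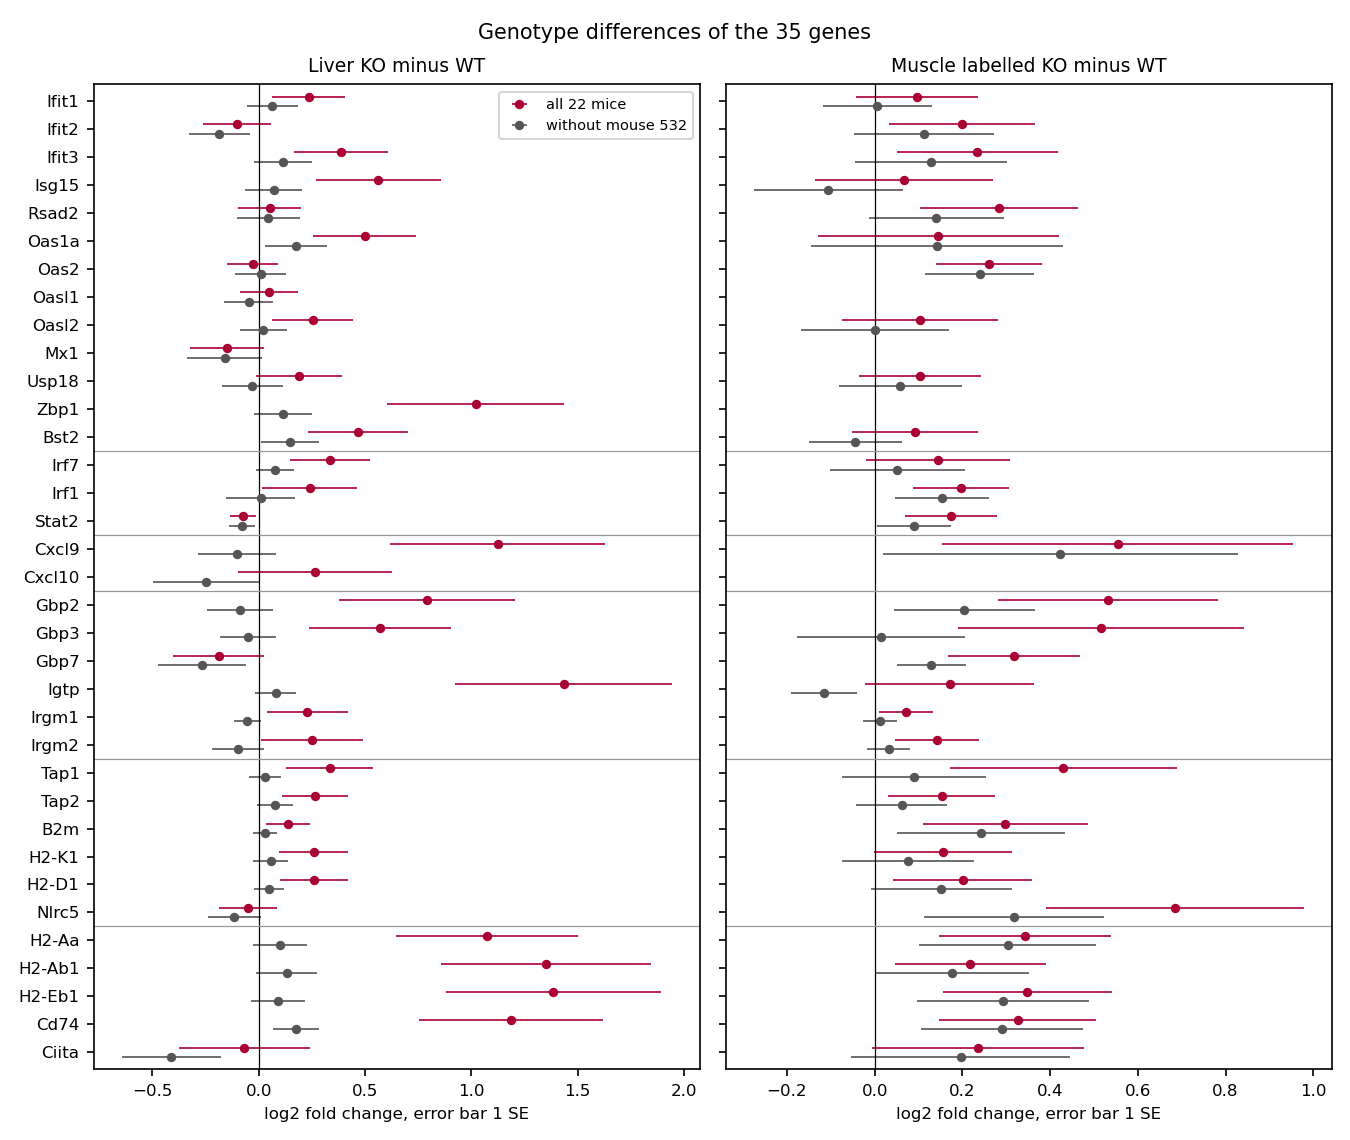
Log2 fold change (dot, with a bar of 1 SE) of the 35 genes between the libraries labelled KO and WT, in liver and in muscle, with all 22 mice in red and without mouse 532 in grey (4 genes had too few reads in muscle). In liver the red dots of Igtp, the 4 class II chain genes, Zbp1 and Cxcl9 lie above 1 and their grey dots between -0.10 and 0.18, while in muscle the dots of both colours lie mostly above 0.

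In muscle, the libraries labelled KO were set against the WT libraries. Here 31 of the 35 genes had enough reads, with Oasl1, Mx1, Zbp1 and Cxcl10 under the filter, and 0 of 31 passed an adjusted p of 0.05 (edgeR over 13266 genes), as against 0.00754% of all genes, and 0 by DESeq2 or limma-voom. At an unadjusted p under 0.05, 4 genes were higher and 0 lower (DESeq2 gave 4 and limma-voom 0). Over all 13266 genes tested, 499 were higher and 647 lower at that level, 8.64% in either direction. All 31 estimates were above 0, with a median log2 fold change of 0.20 against 0.01 over all genes tested. Markers of other cells moved with it: estimates were above 0 for 5 of 5 tested macrophage genes (median 0.25), 4 of 4 adipocyte genes (0.32) and 1 of 1 hepatocyte gene (1.21, unadjusted p under 0.05), and below 0 for 4 of 4 muscle fibre genes (-0.07). Their part in the result was not tested.

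Nlrc5 had the smallest p, at 1.49 to 2.84 (median 1.96) CPM in WT and at 1.45 to 10.8 (median 2.13) CPM in the libraries labelled KO, with a log2 fold change of 0.68 ± 0.29 (adjusted p = 0.523). Oas2 was at 1.58 to 3.24 (median 2.43) and 2.04 to 3.87 (median 2.903) CPM (log2 fold change 0.26 ± 0.12, adjusted p = 0.5498), and Gbp2 at 4.25 to 7.86 (median 5.72) and 4.65 to 26.4 (median 6.31) CPM (0.53 ± 0.25, adjusted p = 0.564). In all 3 the groups overlapped. Gbp7 was the other gene, with a log2 fold change of 0.32 ± 0.15.

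The remaining muscle estimates were small and all above 0. Class II genes ranged from 0.22 ± 0.17 for H2-Ab1 to 0.35 ± 0.19 for H2-Eb1, and class I genes other than Nlrc5 from 0.15 ± 0.12 for Tap2 to 0.43 ± 0.26 for Tap1. Cxcl9 (0.55 ± 0.40) and Gbp3 (0.52 ± 0.33) had larger values with larger errors, and Isg15 (0.07 ± 0.20) and Irgm1 (0.07 ± 0.06) had the lowest. Single mice weighed on this too: without mouse 532, 28 estimates were above 0 and 3 below (Isg15, Bst2 and Igtp), the median was 0.13, and 0 of 31 had an unadjusted p under 0.05, with Nlrc5 at 0.32 ± 0.21. Without mouse 561 the median was 0.15 with 0 genes at an unadjusted p under 0.05, and without mouse 611 it was 0.16 with 1 gene. Leaving out any other single muscle left between 1 and 8 genes at that level.

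In the wider pathway, muscle had 6 of 30 other type I interferon-stimulated genes higher and 0 lower at an unadjusted p under 0.05 (median 0.20). This stands beside 8.64% of all genes (499 higher and 647 lower of 13266). Without mouse 532 it was 1 of 30. The 13 other interferon gamma genes and 9 other class II genes had 0, the 13 other class I genes had 2 higher, and the 20 receptors and signalling genes had 1 higher and 3 lower. None passed an adjusted p of 0.05.

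Whether the genotype difference differed between the tissues was tested as an interaction over all 44 libraries. Of the 35 genes, 0 passed an adjusted p of 0.05 (edgeR over 14739 genes), as against 0.00678% of all genes, and 3 had an unadjusted p under 0.05, beside 16.2% of all genes (DESeq2 and limma-voom called 0, with 3 and 0 at an unadjusted p under 0.05). These were Igtp (1.28 ± 0.57 on the log2 scale, liver difference minus muscle difference, adjusted p = 0.287), H2-Ab1 (1.15 ± 0.54, adjusted p = 0.296) and, with the difference larger in muscle, Nlrc5 (-0.72 ± 0.32, adjusted p = 0.288). The median over the module was 0.12 against -0.03 over all genes, with 24 genes above 0 and 11 below (median -0.08 by DESeq2). Without mouse 532 these became 8 above and 27 below, a median of -0.10, and 0 genes at an unadjusted p under 0.05.

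Mouse 532, labelled KO, was looked at on its own after its values had been seen, so what follows describes 1 animal and carries no test. It was picked as the mouse that was highest in liver at the most of the 35 genes. The liver counts below are therefore not independent of that choice. In its liver it had the highest CPM of all 22 mice at 31 of the 35 genes, whereas it was highest at 24.2% of all genes tested. After the trend of each liver with gene length was removed, it was highest at 33 of 35 genes, against 18.2% of all genes. Its median log2 difference from the median of the other 21 livers was 1.77 over the module (1.47 with the length trend removed) and -0.02 over all genes (0.03). The plot of the 35 genes by mouse shows this animal as diamonds.

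**Figure D3:**
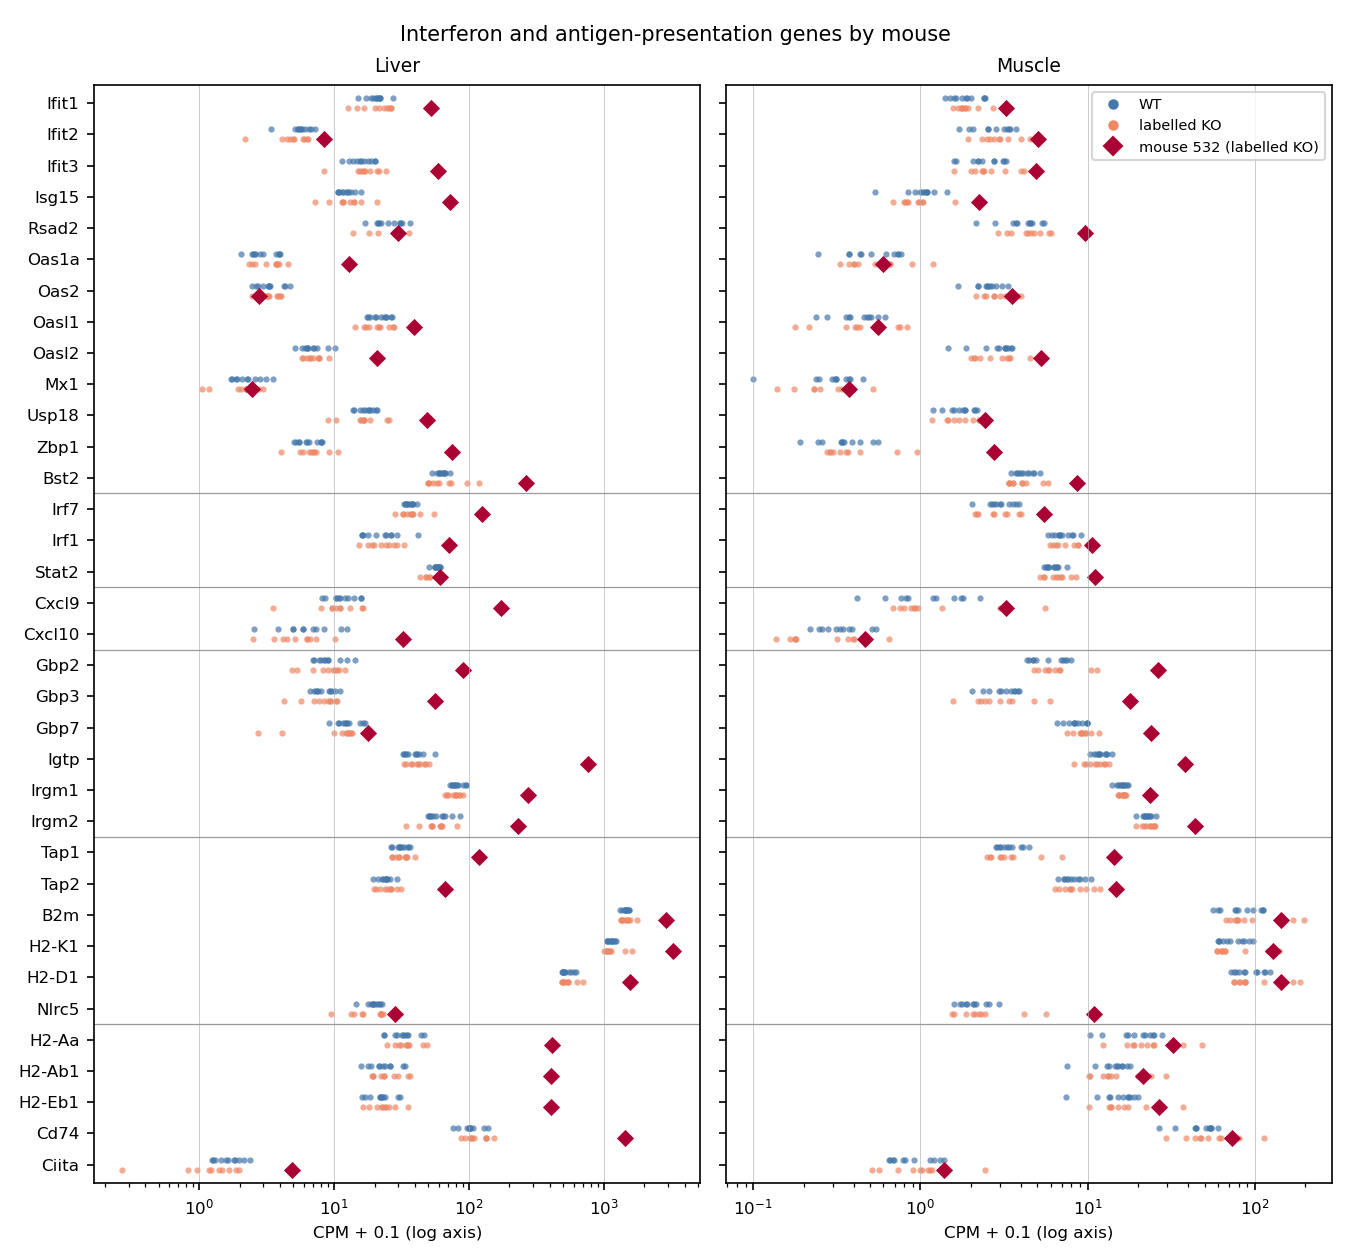
CPM + 0.1 (log axis) of the 35 genes in liver and muscle, 1 dot per mouse for 11 WT and 10 mice labelled KO, and a diamond for mouse 532, also labelled KO. In liver the diamond stands clear of the dots at Igtp, Cxcl9, Zbp1, Gbp2, Gbp3 and the class II genes, and among them at Oas2 and Mx1, while in muscle it stands clear at the GTPases and Nlrc5 and within the dots at the class II genes.

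The roles of the module stood apart to different degrees in this liver. The class II genes had a median ratio of 13.9 to the median of the other 21 livers: Cd74 was at 1427 CPM against at most 153 CPM (median 103) in the other livers, H2-Eb1 at 409 CPM against at most 35.1 CPM (median 22.6), H2-Ab1 at 406 CPM against at most 36.4 CPM (median 23.2) and H2-Aa at 411 CPM against at most 49.2 CPM (median 33.5). Their transactivator Ciita was at 4.75 CPM against at most 2.27 CPM (median 1.37), a ratio of 3.47. The chemokines had a median ratio of 10.6, with Cxcl9 at 172 CPM against at most 16.3 CPM (median 11.0) and Cxcl10 at 32.3 CPM against at most 12.5 CPM (median 5.81). Each of these values lay above that of every other liver. With the length trend removed, the median log2 difference of the class II genes went from 3.80 to 3.24 and that of the chemokines from 3.21 to 2.99.

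The GTPases had a median ratio of 5.43, led by Igtp at 759 CPM against at most 55.9 CPM (median 40.3), which is 18.8 times the median and the highest ratio of the module. Gbp2 was at 89.6 CPM against at most 14.3 CPM (median 8.86) and Gbp3 at 56.5 CPM against at most 10.9 CPM (median 8.33). Irgm1 and Irgm2 had ratios of 3.48 and 4.08, and Gbp7, at 17.6 CPM against at most 16.8 CPM (median 12.2), was barely above the next liver. Within this gene family the excess thus ran from 1.45 to 18.8 times, before removal of the length trend. With the trend removed, the log2 difference of Gbp7 went from 0.53 to 1.39 and that of Igtp from 4.23 to 4.08.

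Class I genes (median ratio 2.81), the factors (2.97) and the type I effectors (2.94) stood apart less. The heavy chain H2-K1 was at 3255 CPM against at most 1630.4 CPM (median 1113), H2-D1 at 1560.0 CPM against at most 701 CPM (median 513), and B2m at 2892 CPM against at most 1768 CPM (median 1459.6). Tap1 and Tap2 had ratios of 3.805 and 2.705, Irf7 of 3.42 and Irf1 of 2.97. Among the effectors the ratios went from 11.6 for Zbp1, 5.95 for Isg15 and 4.37 for Bst2 to 2.48 for Ifit1 and 1.82 for Oasl1. In 4 genes this liver was not the highest: Stat2 (61.4 CPM, rank 2 of 22), Mx1 (2.37 CPM, rank 7), Rsad2 (29.9 CPM, rank 9) and Oas2 (2.67 CPM, rank 18). With the length trend removed, 11 of the 13 effectors and 3 of 3 factors were highest in this liver. The ratios above are without that removal. It took the log2 difference of B2m from 0.99 to 0.22, of Bst2 from 2.13 to 1.24 and of Isg15 from 2.57 to 1.69. That of Nlrc5 went from 0.54 to 1.11.

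In the muscle of the same mouse, the module stood apart less and in another order. It was highest of 22 at 20 of the 31 genes tested, whereas it was highest at 2.71% of all genes, and its median log2 difference was 0.86 against -0.01 over all genes. All 6 GTPases were highest there, with Gbp3 at 17.7 CPM against at most 5.88 CPM (median 2.92), Gbp2 at 26.4 CPM against at most 11.2 CPM (median 5.76) and Igtp at 38.1 CPM against at most 13.97 CPM (median 11.6). Nlrc5 was at 10.8 CPM against at most 5.53 CPM (median 1.998) and Tap1 at 14.2 CPM against at most 6.97 CPM (median 3.08). Zbp1, under the filter in muscle, had 58 counts (2.64 CPM) against at most 0.851 CPM elsewhere. Rsad2, at rank 9 in its liver, was highest in its muscle at 9.56 CPM against at most 5.92 CPM (median 4.28). The class II genes had a median ratio of 1.51 and were highest in none of 5.

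Genes that make, receive and relay interferon were then read in the same animal. Of 17 interferon ligand genes in the tables, 0 passed the filter in either tissue. Ifng had 25 counts (0.928 CPM) in the liver of mouse 532 and at most 1 count in any other liver, and in muscle at most 2 counts in any mouse. Socs1, the feedback inhibitor of the receptor kinases, was at 2.93 CPM in its liver against at most 0.434 CPM. Other genes known as interferon gamma targets were highest in this mouse at 16 of 16 in liver (median log2 difference 2.46) and 11 of 13 in muscle (1.59), among them Tgtp1 (93.4 CPM against at most 3.55 CPM in liver), Ccl5 (38.8 against at most 1.37 CPM) and the immunoproteasome subunit Psmb8 (168 against at most 36.8 CPM). In muscle, Gbp4 was at 49.7 CPM against at most 13.97 CPM and the checkpoint ligand Cd274 at 18.1 CPM against at most 7.39 CPM. Other type I interferon-stimulated genes were highest at 20 of 33 in liver (0.73; 27 of 33 with the length trend removed) and 7 of 30 in muscle (0.48), and receptors and proximal signalling genes at 7 of 22 (0.20) and 2 of 20 (0.06). The other class I genes were highest at 9 of 13 and 6 of 13, and the other class II genes at 8 of 11 and 1 of 9.

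Markers of immune cells moved with part of this in liver, and their part in the result was not tested. The 9 macrophage and Kupffer cell genes summed to 659 CPM in the liver of mouse 532, against 300.0 to 392 CPM in WT and at most 468 CPM in the other KO livers, with Marco, Cd68 and Csf1r high and Cd163 and Mrc1 the lowest of 22. The 6 dendritic cell genes summed to 20.0 CPM (WT 8.64 to 13.6), the 5 T cell genes to 9.09 CPM (WT 1.73 to 3.98), the 4 NK cell genes to 6.35 CPM (WT 0.65 to 1.89) and the 4 B cell genes to 5.05 CPM (WT 0.72 to 4.38). These sums include genes under the filter, which 1 T cell and 1 NK cell gene passed. Their log2 differences were 0.50 (not the highest liver) and 2.91, and 0.47 and 2.15 with the length trend removed. Of 3 B cell genes tested, 2 were highest before and 0 after that removal. The median over 4 dendritic cell genes went from 1.23 to 1.72, and over the macrophage genes from 0.90 to 0.71. The pan-leukocyte gene Ptprc was at 9.50 CPM, rank 11 of 22, but with the length trend removed it was the highest of 22, at a log2 difference of 0.89 from the other livers (0.04 before). Endothelial genes summed to the lowest level of 22 (75.1 CPM), with a median log2 difference of -0.84 that became -0.12 with the length trend removed. No gene of these lists was at 0 in every liver of a genotype. In the muscle of this mouse the immune markers did not stand out: Ptprc was at 2.05 CPM (rank 14) and macrophage genes at 42.5 CPM (rank 15). The 4 hepatocyte genes summed to 5.64 CPM there (rank 2), within the range of the other muscles.

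Muscles of 2 other mice labelled KO, 561 and 611, were also high in the module, with a different order of roles. Mouse 561 was among the 3 highest at 29 of the 35 genes in muscle, mouse 611 at 26 and mouse 532 at 30. The 35 include Oasl1, Mx1, Zbp1 and Cxcl10, which were under the filter in muscle. The share of all genes at which each mouse was among the 3 highest was not computed. These counts therefore do not set the module apart from other genes. Mouse 561 was highest at 10 of the 31 tested genes, and also at 12.4% of all genes tested. Mouse 611 was highest at 0 of the 31 and at 11.4% of all genes, and mouse 532 at 20 of the 31 and at 2.71% of all genes. Cd74 was at 113 CPM in mouse 561, 80.8 CPM in mouse 611 and 73.3 CPM in mouse 532. B2m was at 198, 169.7 and 143 CPM in the same order, against at most 112 CPM in WT muscle. In muscle all 5 class II genes, B2m, H2-K1 and H2-D1 were highest in mouse 561. These 2 muscles also had the highest leukocyte, macrophage and adipocyte markers: Ptprc was at 6.39 and 5.89 CPM against at most 3.42 CPM in WT, the macrophage genes summed to 82.5 and 85.4 CPM against at most 67.0 CPM in WT, and the 4 adipocyte genes to 704 and 604 CPM (ranks 1 and 2). Muscle fibre genes were low in them, at 125248 CPM (rank 20) and 103674 CPM (rank 22), and the part of this in the result was not tested.

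Covariation between mice was followed in 19 pairs of genes in both tissues. A pair was made of MHC chains, of a factor and a target, or of genes of the same or of different roles. The 38 relations used log2 CPM as deviations from the genotype mean (two-sided permutation test of 100000 resamples, Benjamini-Hochberg over the 38). All 38 correlations were positive. By Pearson's r and Spearman's rho alike, 10 of 19 passed in liver (median r 0.76) and 14 of 19 in muscle (median r 0.70). Without mouse 532, 5 of 19 passed in liver (median r 0.42) and 8 of 19 in muscle (0.63), and 2 of the liver pairs turned negative. Without the 4 livers of negative slope, 6 of 19 passed in liver (median r 0.53).

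The pairs of MHC chains were the most closely tied. H2-Aa and H2-Ab1, which form a single class II molecule, had r of 0.99 and rho of 0.94 in liver (adjusted permutation p = 5.4e-05 and 6.3e-05) and r and rho of 0.93 in muscle. Without mouse 532 the liver r was 0.92, within WT mice it was 0.95, and without the 2 mice farthest from the median of H2-Aa it was 0.91. Cd74 and H2-Eb1 had r of 0.99 in liver and 0.97 in muscle. H2-K1 and H2-D1 had r of 0.98 in both. They are heavy chains of separate class I molecules, and their counts depend on how shared reads were assigned. Without mouse 532 these were 0.91 and 0.97 for Cd74 with H2-Eb1, and 0.89 and 0.99 for H2-K1 with H2-D1. The factor pairs were looser, with Irf7 and Oasl2 at r of 0.82 in liver and 0.80 in muscle, and at 0.38 (adjusted permutation p = 0.0739) and 0.74 without mouse 532. For Rsad2 and Ifit2 the liver r was 0.70 with that mouse and 0.73 without it.

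Isg15 and Gbp2, a type I effector and a GTPase, had r of 0.84 in liver, which became 0.29 without mouse 532 and 0.06 without the 2 mice farthest from the median of Isg15, whereas in muscle r was 0.80, and 0.64 and 0.71 in the same order. Igtp and Irgm2 had r of 0.89 in liver and 0.90 in muscle, and 0.64 and 0.51 without mouse 532. Ciita and Cd74 did not pass in liver (r of 0.56, adjusted permutation p = 0.151) and passed by r alone in muscle (r of 0.60, adjusted permutation p = 0.0116, with rho at 0.073). Without mouse 532 the liver r of Ciita and Cd74 was 0.01. Few reads lie behind Ciita, with a median of 1.37 CPM in the livers other than that of mouse 532.

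For Nlrc5 and its class I targets the values of both tissues are set side by side. These values moved with the treatment of gene length. With H2-K1, r was 0.10 in liver (adjusted permutation p = 0.767) and 0.77 in muscle (0.0023), and with Tap1 it was 0.41 in liver (0.152) and 0.91 in muscle (4.2e-04). Without mouse 532 the liver r of Nlrc5 and H2-K1 was -0.68 (adjusted permutation p = 0.0256, with rho of -0.43 at 0.151), within WT mice it was 0.10, and without the 4 livers of negative slope it was -0.11. With the length trend removed, the liver r was 0.55 with H2-K1 (adjusted permutation p = 0.0925) and 0.72 with Tap1 (adjusted permutation p = 0.0305, with rho of 0.17 at 0.497). The livers of mice 583 and 602, of negative length slope, had Nlrc5 at 13.9 and 9.36 CPM and H2-K1 at 1444 and 1630.4 CPM, against WT ranges of 14.4 to 22.7 and 1054 to 1241 CPM. In these 2 livers the long gene Nlrc5 was low and the short gene H2-K1 high. In the liver of mouse 532, of the most negative slope, both were the highest of 22 (28.3 and 3255 CPM). The part of gene length in the relation was not tested. Whether the 2 tissues differ in this relation was not tested.

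Over all pairs of the 35 genes, the correlation is given as a description, since the genes share libraries and depth. The median r was 0.71 in liver and 0.61 in muscle, beside 0.00 over all genes tested in either tissue, and without mouse 532 it was 0.35 and 0.53. Without the 4 livers of negative slope the liver median was 0.40, and with the length trend removed 0.73. Class II genes had a median r of 0.99 in liver and 0.94 in muscle, and of 0.90 and 0.94 without that mouse. Ciita stood outside this block. Its liver r with H2-Aa, H2-Ab1, H2-Eb1 and Cd74 was 0.64, 0.55, 0.59 and 0.56. Without mouse 532 these were 0.33, 0.04, 0.12 and 0.01. Among the GTPases the medians were 0.91 and 0.79 with mouse 532 and 0.64 and 0.25 without it, and among the class I genes 0.87 and 0.81 with it and 0.20 and 0.78 without it. The maps of correlation show the block of the class II genes other than Ciita in all 4 panels.

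**Figure D4:**
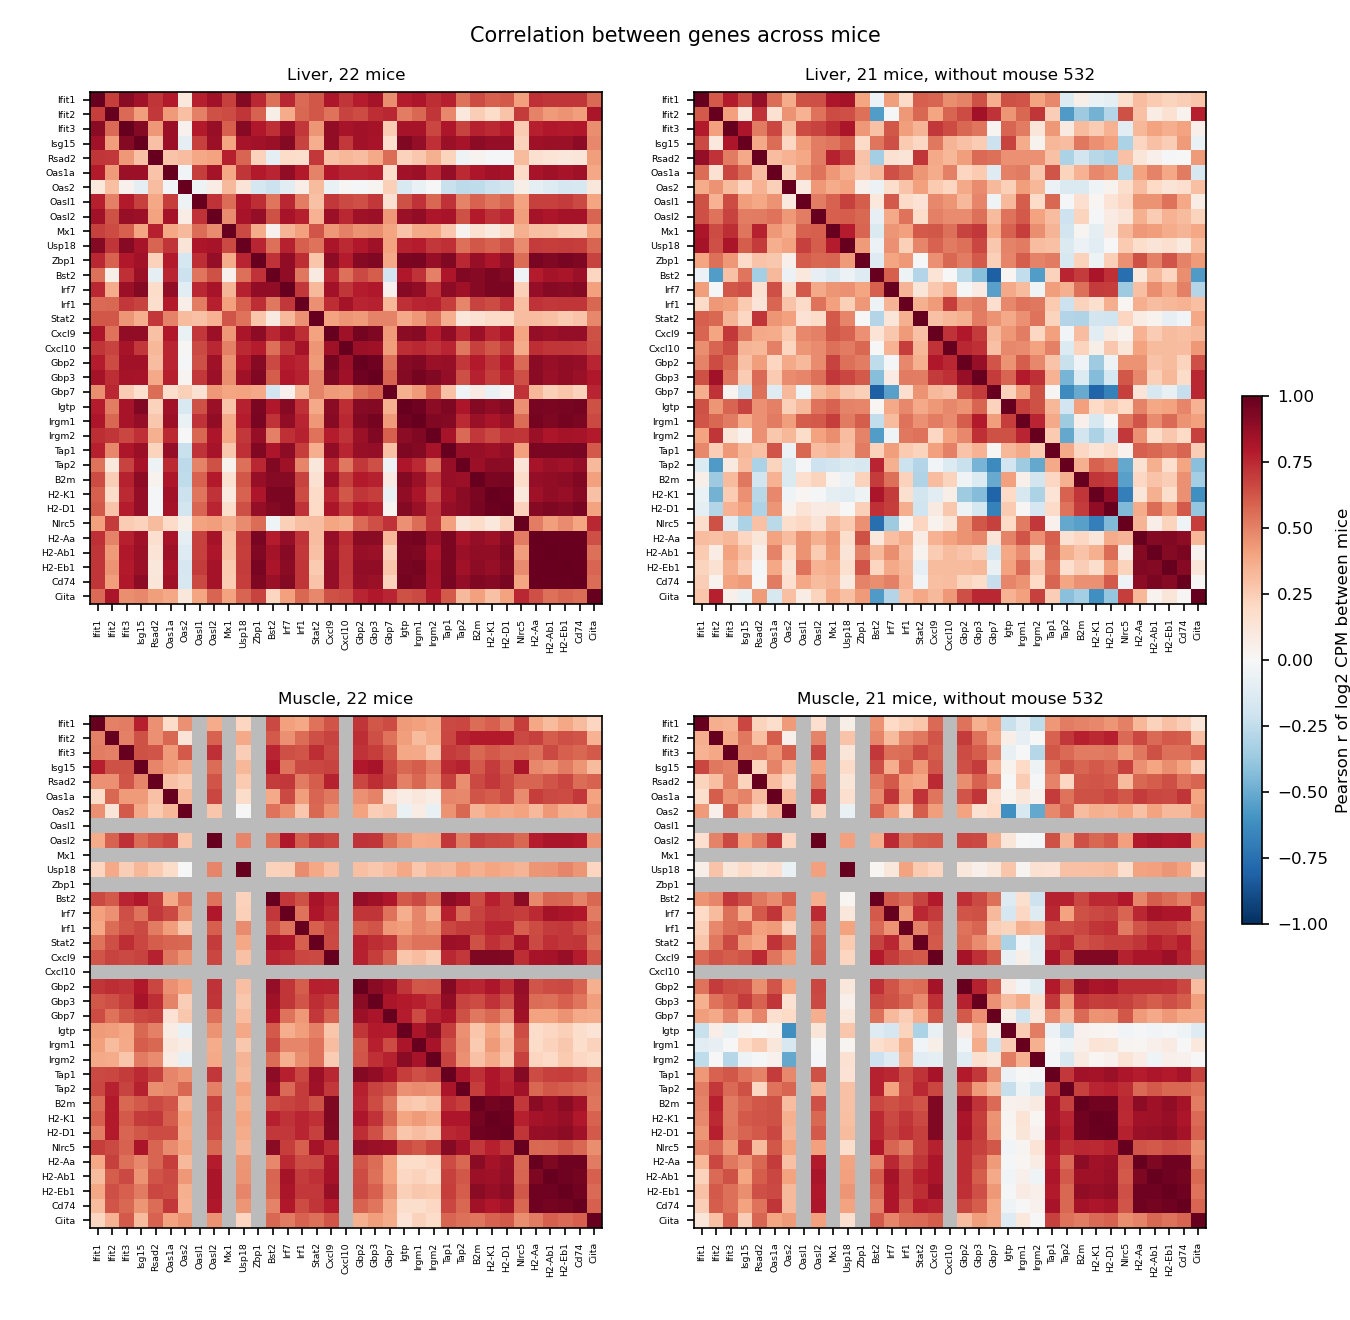
Pearson r between mice of log2 CPM (deviations from the genotype mean) for each pair of the 35 genes, in liver and muscle, with all 22 mice at left and without mouse 532 at right; red is positive, blue negative, and grey marks genes with too few reads in muscle. The median r of the module falls from 0.71 to 0.35 in liver and from 0.61 to 0.53 in muscle without this mouse, while the block of the 4 class II chain genes at the lower right remains red.

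Finally, the level of the same gene in liver and muscle was compared within each mouse, for the 31 genes with enough reads in both tissues (two-sided permutation test, Benjamini-Hochberg over 31). The median r was 0.42, and 3 genes passed by r and rho: Irf1 (r of 0.74, adjusted permutation p = 0.0012; rho of 0.72), Tap1 (r of 0.86, adjusted permutation p = 0.0045; rho of 0.72) and Gbp3 (r of 0.82, adjusted permutation p = 0.0252; rho of 0.61). Without mouse 532 the median r was 0.10 and Irf1 alone passed, with r of 0.71 (adjusted permutation p = 0.0062) and rho of 0.69. Tap1 then had r of 0.61 (adjusted permutation p = 0.0794).

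Irf1 varied between mice in both organs together. In the liver of WT mice it ranged from 15.9 to 41.8 CPM and in their muscle from 5.69 to 9.01 CPM, and mouse 516 was the highest WT mouse in both. Its r was 0.90 within WT mice and 0.67 within the mice labelled KO, and 0.67 without the 2 mice farthest from the liver median. Igtp shows the other case: r was 0.90 but rho 0.35, and r was -0.09 without the 2 farthest mice. None of the 5 class II genes passed, with r between 0.05 for Ciita and 0.30 for H2-Eb1, and H2-Ab1 is plotted as their example.

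**Figure D5:**
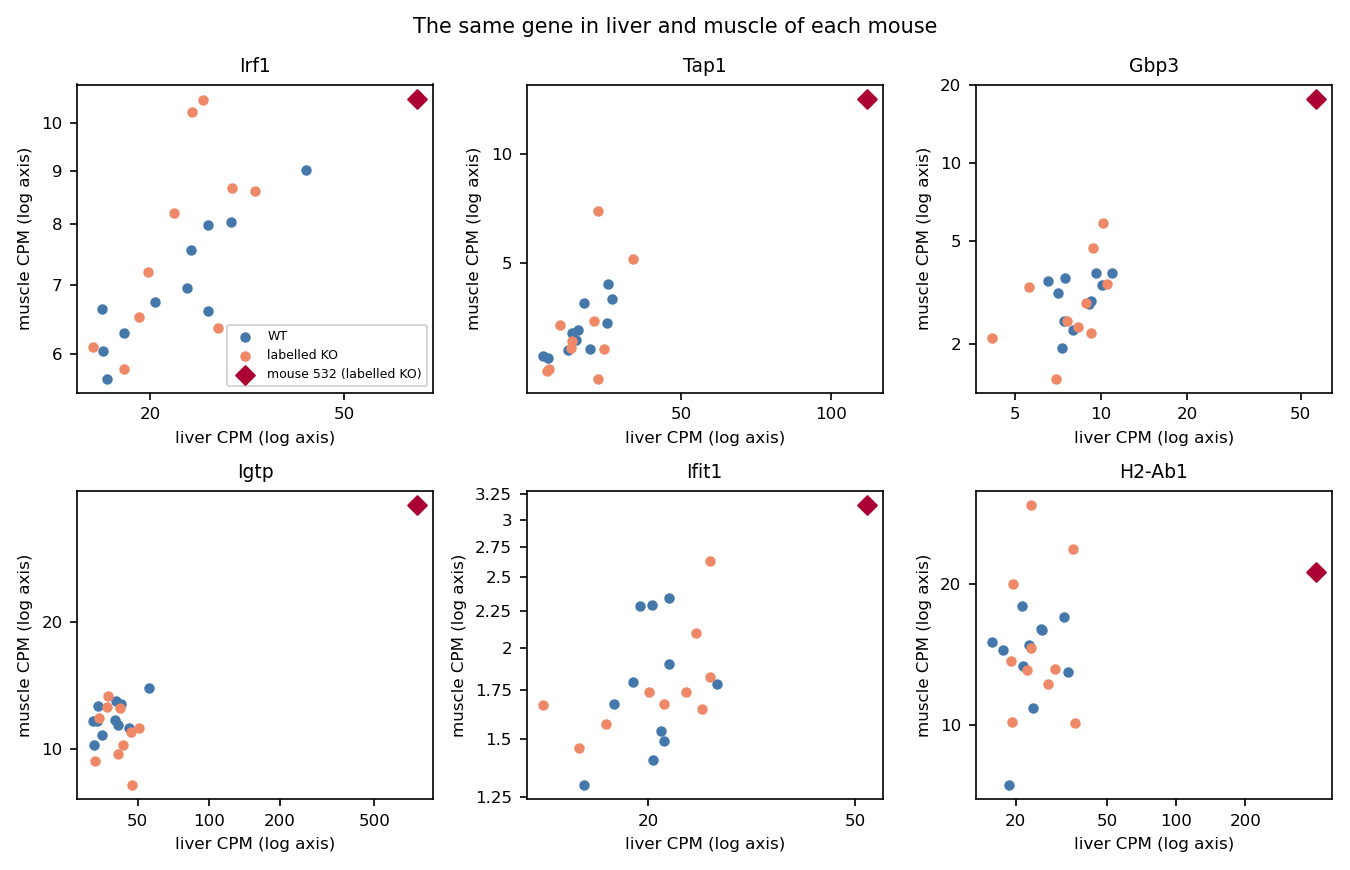
Muscle CPM against liver CPM (log axes) of 6 genes, 1 point per mouse, for 11 WT mice, 10 mice labelled KO and mouse 532 as a diamond. Irf1 rises in muscle with its level in liver across the mice, whereas for Igtp only mouse 532 stands apart (r of 0.90, and -0.09 without the 2 farthest mice).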

How the data were processed

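Members and lists were chosen with earlier results of these data known. The authors deposited raw counts of uniquely assigned reads per gene and RPKM values for 44 single-end, stranded poly(A) libraries (22 mice with liver and muscle each). The aligner, counter, build and annotation are not given in the sources used here, and limma is the tool named in the submitters' notes. Genes were named from the reference table for 36340 of 38202 identifiers. Groups follow the labels, and the same animal number marks the same mouse in both tissues, so tissues can be paired by animal. The liver-muscle correlations and the fits with the animal as replicate block used this pairing. No 2 libraries were identical.

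Counts were tested with edgeR 4.0.16 (filterByExpr, TMM, quasi-likelihood F-test) in R 4.3.3, with Benjamini-Hochberg adjustment over all genes tested and a threshold of 0.05. Unless RPKM is named, levels are CPM computed from the counts, and correlations use log2 CPM with a prior count of 2. Named genes are all 35 members, with full statistics in each genotype contrast for the 3 smallest p. Scripts were tested on simulated data. P-values measure the spread between mice within a tissue. The main tissue and interaction fits treated the 2 libraries of a mouse as independent, so their p-values ignore the pairing. Alternatives were limma-voom 3.58.1, DESeq2 1.42.0, other filters and scaling, a gene length offset (loess span 0.3), log2 RPKM with pseudocounts of 0.1 and 1, the animal as replicate block, and leaving out libraries.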

Additional observations from a re-analysis of the deposited data

How the results depend on the processing

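In liver and in muscle the number of the 35 genes called stayed at 0 under every alternative, with leave-one-out values from 0 to 0, and in the interaction it stayed at 0. In WT liver against WT muscle 35 were called, or 29 when each library had to hold 10 counts, since 6 genes were then not tested. With the animal as replicate block, the paired fit gave 0 genes for the interaction and 35 for the tissues, so no call over the module changed (over all genes it called 1 against 1, and 12674 against 12653). DESeq2 called 43 genes in all for the interaction against 1 by edgeR, and 6 against 3 in liver. Without TMM scaling the median of all genes in the interaction was -0.11.

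Of 358 single-gene values under alternatives other than leaving out 1 library, 353 kept their direction and side of the threshold and 5 reversed. These were H2-Eb1 in liver without the 4 livers of negative length slope (-0.049), Igtp and H2-Ab1 in the interaction by DESeq2 (-0.15 and -0.12), and H2-Ab1 in the interaction without the mice of those livers (-0.18) and without mouse 532 (-0.049). For the last, the cause was mouse 532 by construction, and for the others the cause was not tested. The pairs past both tests went from 24 to 13 of 38 without mouse 532, and the genes related between liver and muscle from 3 to 1 without mouse 532 and from 3 to 1 without the mice of negative slope, with fewer mice in each. Leaving out mouse 532 from the interaction and the correlations was chosen after seeing the data. The 132 single-gene values that left out 1 library kept their direction and side of the threshold. They belong to the 3 genes of smallest p in liver and in muscle, none past the threshold with all mice, so keeping that side says little. Size was not part of these tallies: Igtp in liver went from 1.43 to 0.08 at the lowest. The 358 values include all 35 genes in WT liver against WT muscle, where 91% of all genes passed.

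Counts below 10 in some library limit Oasl1, Mx1, Zbp1, Cxcl10, Oas1a and Cxcl9 in muscle and Ciita in liver, and Ifng in every library but 1.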

Other observations

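Genes outside the module were ranked by their correlation between mice with the mean of the class II chain genes and Cd74, as a description with no test. In liver the closest was Cd52, a leukocyte surface glycoprotein, with r of 0.96 over 22 mice and of 0.74 without mouse 532. In muscle the closest were Col5a2, a fibrillar collagen chain (0.95), and Rab3d, a vesicle GTPase (0.92), and without mouse 532 they were the same genes, Rab3d (0.97) and Col5a2 (0.96). For the 13 type I effectors in liver the first gene was Gm12250 (0.88), and without mouse 532 it was Cyp17a1, a steroid hydroxylase (0.83).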
